A study of Mus musculus with 36 samples.

Results

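Mouse embryonic fibroblasts (MEFs) that were being reprogrammed towards pluripotency were separated by whether they carried CDH1 (E-cadherin) on their surface, and polyadenylated RNA of both fractions was sequenced after further culture in vehicle. The comparison rests on 4 of the 36 libraries in the series, picked by their titles: 2 of CDH1-positive and 2 of CDH1-negative control cells. All cells were E13.5 MEFs, homozygous at Col1a1 for a cassette of Oct4-2A-Klf4-2A, an IRES and Sox2-2A-c-Myc, and heterozygous at Rosa26 for the reverse tetracycline transactivator. Doxycycline, which switches the cassette on, was given for 3.5 days, the cells were sorted by FACS, and both fractions were then kept in doxycycline and DMSO until day 5.5. A further 4 libraries of the same sort received SGC0946, an inhibitor of the H3K79 methyltransferase DOT1L, in place of DMSO, and entered the statistical fit and a second comparison. Uninduced MEFs, unsorted day 4 cells and embryonic stem cells (ESCs) of the same series are cited for levels and for gene sets drawn from contrasts among them. Reprogramming cells grew on irradiated feeder MEFs, whose RNA the counts cannot separate, and whether both libraries of a fraction were grown as separate cultures is not given. Each p-value is thus set against a spread between libraries that could be purely technical.

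CDH1 is the calcium-dependent adhesion molecule of adherens junctions, and its cytoplasmic tail binds catenins that link the junction to actin. Fibroblasts lack it, and during reprogramming to induced pluripotency they pass through a mesenchymal-to-epithelial transition in which junction and keratin genes come on before the endogenous pluripotency network. Snail, Zeb and Twist factors repress epithelial genes in mesenchymal cells, in part through E-box sequences in their promoters.

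The control libraries summed to between 34927900 and 38947000 expected counts, and the 8 libraries of the sort to at most 43123000. Levels are given as CPM, the share of a library that a gene takes on TMM-scaled library sizes, and log2 fold changes are CDH1-positive minus CDH1-negative ± SE. Adjusted p-values are Benjamini-Hochberg values of edgeR's quasi-likelihood test over all 13968 genes tested. A gene is called at an adjusted p under 0.05. Replicates varied by 2.26% beyond counting noise, so that small differences passed the test. Of all genes tested, 26.6% were called: 1793 higher (12.8%) and 1924 lower (13.8%) in CDH1-positive cells, with a median log2 fold change of 0.00. Without CDH1-positive replicate 1, 1201 genes were lower. With limma on log2(TPM + 1) the split moved from 48.2% to 67.9% of calls higher. Differences of 2-fold or more were uneven, at 259 genes higher (1.85%) and 21 lower (0.15%).

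**Figure D1:**
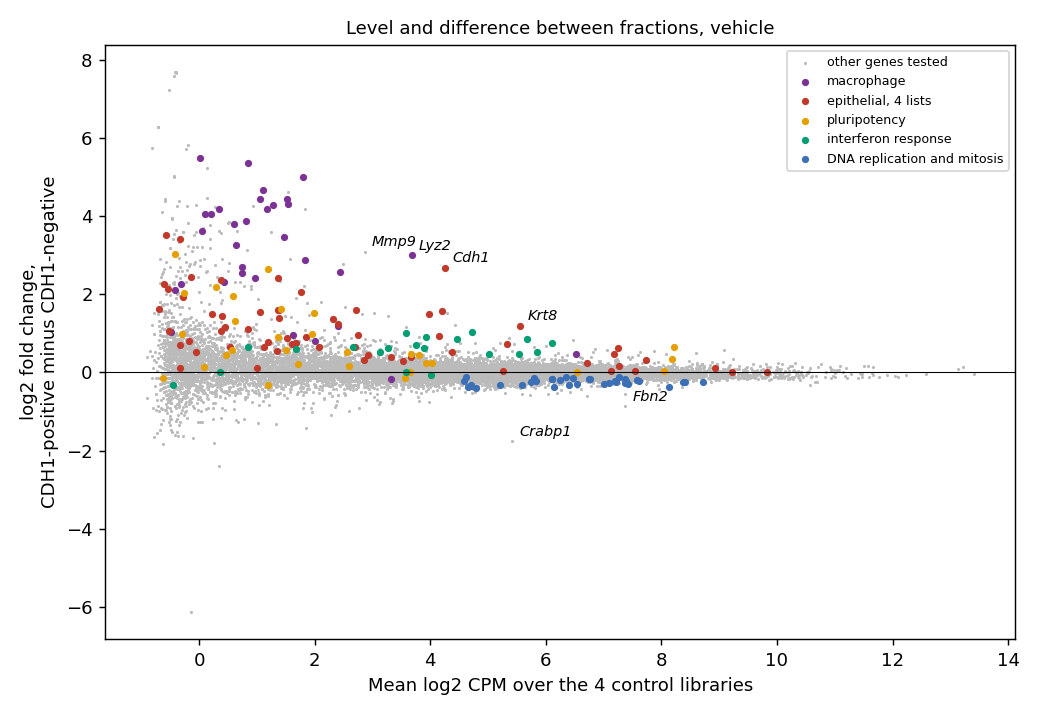
Mean log2 CPM over the 4 control libraries (x axis) against the log2 fold change between fractions in vehicle (y axis) for every gene tested, with 5 groups of lists in colour. The macrophage and epithelial genes lie mostly above 0 at low mean levels, and the replication and mitosis genes form a narrow band just below 0.

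Cdh1, the gene of the sorted protein, was measured at 7.27 and 7.24 CPM in the CDH1-negative libraries and at 46.6 and 46.0 CPM in the CDH1-positive libraries. The fractions were thus still apart for the sort marker 2 days after sorting, with a log2 fold change of 2.67 ± 0.07 (adjusted p = 6.98e-63). In libraries scaled separately, unsorted day 4 cells stood at 7.78 CPM, uninduced MEFs at 0.0661 CPM and ESCs at 737 CPM. High levels of fibroblast transcripts were measured in both fractions, and the counts cannot separate RNA of feeder MEFs from them. Vim, the intermediate filament of mesenchymal cells, was at 6146 and 6338 CPM in CDH1-negative and 6072 and 6017 CPM in CDH1-positive libraries (log2 fold change −0.05 ± 0.02, adjusted p = 0.127).

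Genes of epithelial cells were higher together in the CDH1-positive fraction. Over 4 lists (junctions, keratins and desmosomes, the matriptase system, and epithelial regulators), 61 of 62 members passed the filter on low counts. Of these, 48 were higher, 0 lower and 13 not called, with a median log2 fold change of 0.81. Cdh1 itself is among the 48. Both CDH1-positive libraries lay above both CDH1-negative libraries for 55 of the 62 members, against 23.7% of all 20325 genes in the files. Macrophage transcripts, described below, were higher in the same libraries (283 and 285 against 109 and 112 CPM summed over their list), and in bulk RNA fewer cells of a type and less RNA per cell cannot be told apart. Their part in the epithelial difference was not tested.

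Among junction genes, 20 of 26 were higher and none lower (edgeR, counts over all genes tested). Surface molecules and several claudins gave the larger differences, but not Cldn3, which overlapped between groups at 1.26 and 1.64 against 1.76 and 1.37 CPM (0.12 ± 0.21, adjusted p = 0.738). Epcam, an adhesion molecule of epithelia and ESCs, was at 3.69 and 3.15 CPM in CDH1-negative and 10.4 and 10.5 CPM in CDH1-positive libraries (1.61 ± 0.11, adjusted p = 5.74e-24). Cldn4, a tight junction claudin, read 0.858 and 0.817 CPM against 4.34 and 4.68 CPM (2.42 ± 0.19). For Cldn6, a claudin of early embryonic epithelia, the values were 1.17 and 1.58 against 5.81 and 5.6 CPM (2.05 ± 0.16). For Epcam, Cldn4 and Cldn6 the groups did not overlap. F11r, which encodes the junctional molecule JAM-A, differed less, at 29.0 and 32.7 against 50.4 and 50.8 CPM (0.71 ± 0.05). The tricellular junction receptor Lsr differed by 1.35 ± 0.13 and tricellulin (Marveld2) by 1.43 ± 0.32. Cldn7 had 0 and 2 counts in CDH1-negative libraries and 10 and 18 in CDH1-positive libraries, a ratio of 12.7 with a counting interval of 3.19 to 110 (exact binomial, 95%, counting error only).

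The cytoplasmic scaffold of the junction differed less than its surface molecules. Ctnnb1 (beta-catenin) was at 904 and 906 against 904 and 929 CPM (0.02 ± 0.02, adjusted p = 0.637), and Ctnna1 (alpha-catenin) at 594 and 585 against 593 and 603 CPM (0.02 ± 0.02, adjusted p = 0.568). Jup (plakoglobin), which serves both adherens junctions and desmosomes, was higher by 0.31 ± 0.03, with 187 and 194 against 234 and 239 CPM. Tjp1 (ZO-1) did not pass the test (0.04 ± 0.03, adjusted p = 0.348). All 4 polarity genes of the list were higher, the apical protein Crb3 by 1.93 ± 0.52 from under 0.2 CPM and Inadl, which encodes the scaffold PATJ, by 0.52 ± 0.07.

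Keratins and desmosomal genes followed, with 12 of 16 higher and none lower. Krt8, the type II keratin of simple epithelia, stood at 29.4 and 32.2 CPM in CDH1-negative and 69.1 and 72.2 CPM in CDH1-positive libraries (1.2 ± 0.05, adjusted p = 4.09e-45). Its partner Krt18 was at 4.69 and 4.17 against 8.86 and 8.46 CPM (0.96 ± 0.11). The keratins Krt14 and Krt17 of stratified epithelia differed by 1.40 ± 0.19 and 1.61 ± 0.19 from about 1 CPM. Krt19 ran against this pattern. It was abundant in both fractions, at 134 and 141 against 144 and 137 CPM, and its groups overlapped (0.03 ± 0.03, adjusted p = 0.528). Among desmosomal genes, the plaque protein Dsp was at 125 and 119 against 170 and 168 CPM (0.47 ± 0.03), Perp at 124 and 120 against 191 and 185 CPM (0.62 ± 0.03) and the cadherin Dsg2 at 0.715 and 1.08 against 2.69 and 2.54 CPM (1.54 ± 0.21). The cadherin Dsc2 did not pass the test (0.03 ± 0.05, adjusted p = 0.691).

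The matriptase system is a membrane protease of epithelia with its activating protease and its inhibitors, and all 4 members were higher. St14 (matriptase) was measured at 9.98 and 10.8 CPM in CDH1-negative and 31.3 and 30.0 CPM in CDH1-positive libraries (1.56 ± 0.07, adjusted p = 5.51e-40). Its inhibitor Spint1 stood at 9.30 and 8.76 against 24.2 and 26.5 CPM (1.49 ± 0.07), and Spint2 at 12.3 and 12.8 against 23.0 and 24.6 CPM (0.92 ± 0.07). These 3 genes were among the 15 largest increases at a mean log2 CPM of at least 3. Prss8 (prostasin) was near the detection limit, and its call ended without CDH1-negative replicate 1 (adjusted p = 0.34) or CDH1-positive replicate 2 (adjusted p = 0.445).

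Of the regulators of epithelial identity, 15 of 16 were tested and 12 were higher. The splicing factor Esrp1, which sets epithelial isoforms, was at 0.114 and 0.525 against 1.63 and 1.69 CPM (2.37 ± 0.33). Grhl2, a Grainyhead factor that activates Cdh1 and claudins, read 0.343 and 0.409 against 1.08 and 1.03 CPM (1.49 ± 0.34). Ovol2, a repressor of mesenchymal genes, was at 0.172 and 0.117 against 0.594 and 1.00 CPM (2.44 ± 0.48). These levels are low, at or under a few CPM. Tcfap2c (now Tfap2c) was higher at 2.89 and 3.27 against 7.18 and 7.37 CPM (1.24 ± 0.12). Trp63, the factor of stratified epithelia, was at most 0.372 CPM in any control library and did not pass the test (0.12 ± 0.50, adjusted p = 0.901). With limma on log2(TPM + 1), 7 of these regulators were called higher, but only genes at a mean TPM of at least 1 were tested there.

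**Figure D2:**
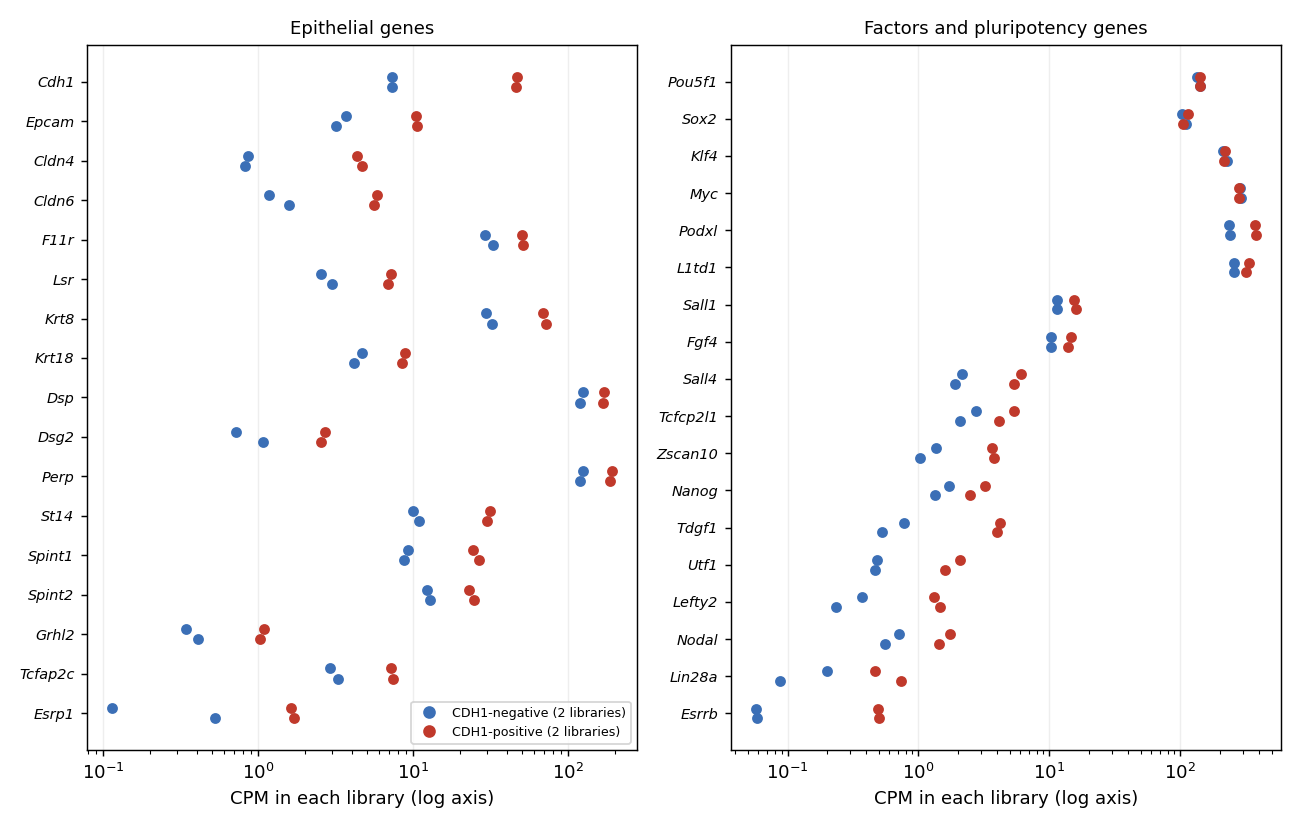
CPM in each of the 4 control libraries (x axis, logarithmic) for 17 epithelial genes (left) and for the 4 reprogramming factors with 14 pluripotency genes (right). The red CDH1-positive points lie to the right of the blue CDH1-negative points for all genes drawn except Pou5f1, Sox2, Klf4 and Myc, whose points lie on each other.

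The letters CACCTG form an E-box that Snail and Zeb factors are known to bind. The 250 bases before RefSeq start sites (build GRCm38.p6) were searched for it on both strands. Windows were at hand for 34 members of the 4 epithelial lists, and 20 held the motif (58.8%), against 1836 of 9902 tested genes (18.5%). Among the members called higher the share was 17 of 28 (60.7%). A match describes letters in a window and shows no binding. Windows of Epcam (chr17:87635729-87635978, plus strand), Cldn4 (chr5:134946935-134947184, minus strand) and Krt8 (chr15:102004343-102004592, minus strand) are shown 5′ to 3′ up to the base before the start, with the E-box on either strand in capitals, as examples from the junction and keratin lists with a higher call and a match. Epcam holds matches that begin 187 and 19 bases before the start, Cldn4 one at 14 bases and Krt8 one at 111 bases.
Epcam: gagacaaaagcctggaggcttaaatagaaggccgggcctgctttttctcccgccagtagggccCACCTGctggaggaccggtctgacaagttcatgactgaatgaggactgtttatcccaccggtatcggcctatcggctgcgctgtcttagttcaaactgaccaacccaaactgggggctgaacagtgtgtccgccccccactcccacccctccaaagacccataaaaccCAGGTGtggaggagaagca
Cldn4: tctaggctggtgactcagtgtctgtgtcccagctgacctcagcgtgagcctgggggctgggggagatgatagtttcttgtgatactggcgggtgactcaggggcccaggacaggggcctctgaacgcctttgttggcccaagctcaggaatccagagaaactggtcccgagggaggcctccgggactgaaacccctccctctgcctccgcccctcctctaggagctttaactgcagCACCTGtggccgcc
Krt8: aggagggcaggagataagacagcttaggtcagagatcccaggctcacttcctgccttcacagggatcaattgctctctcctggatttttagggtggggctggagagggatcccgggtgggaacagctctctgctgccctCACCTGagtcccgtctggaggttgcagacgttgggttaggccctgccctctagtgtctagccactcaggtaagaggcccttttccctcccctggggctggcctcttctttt

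Most transcription factors of the epithelial-to-mesenchymal transition were not called. Of 12 on the list, 1 was higher, 1 lower and 10 were not called (median 0.01). Most genes tested were not called either, with 12.8% of all genes tested higher and 13.8% lower. Snai1 was at 20.3 and 22.5 against 21.3 and 21.7 CPM (0.00 ± 0.06, adjusted p = 0.983). Zeb1 was at 86.8 and 87.5 against 87.3 and 87.8 CPM (0.01 ± 0.04, adjusted p = 0.913), and Twist1 at 38.4 and 41.5 against 40.6 and 39.9 CPM (0.01 ± 0.05, adjusted p = 0.892). For Snai1 and Twist1 the groups overlapped, and for Zeb1 they lay within 1 CPM of each other. Twist2 was lower (−0.28 ± 0.07, adjusted p = 0.00125, 0.0643 without CDH1-negative replicate 2), and Snai3 was higher from about 0.3 CPM (1.22 ± 0.39, adjusted p = 0.012). The Snai3 call ended without either CDH1-negative library or without CDH1-positive replicate 2, with adjusted p between 0.0672 and 0.143.

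Mesenchymal genes were present in both fractions. Of 13 adhesion and signalling genes of mesenchymal cells, 2 were higher and 4 lower, all by small amounts. Of all genes tested, 12.8% were higher and 13.8% lower, so the count of 2 higher is near the general share. Cdh2 (N-cadherin) was at 138 and 131 against 136 and 132 CPM (0.00 ± 0.03, adjusted p = 0.953). The receptor kinase Axl was lower, at 900 and 904 against 818 and 822 CPM (−0.14 ± 0.02), and Cdh11 higher, at 261 and 260 against 295 and 293 CPM (0.18 ± 0.03). In the fibroblast matrix list, 13 of 31 genes were higher, 3 lower and 15 not called (median 0.09). The collagen cross-linking enzyme Lox was at 957 and 940 against 1125 and 1126 CPM (0.25 ± 0.02), Fn1 (fibronectin) at 8700 and 8655 against 9178 and 9376 CPM (0.10 ± 0.02), and Col6a1 was lower by −0.12 ± 0.03.

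Contractile genes of smooth muscle and myofibroblasts were slightly higher, in 10 of 12 members with none lower (median 0.14). Acta2 (smooth muscle actin) was at 3056 and 3098 against 3385 and 3443 CPM (0.15 ± 0.02, adjusted p = 1.1e-07), and Myh11 at 85.4 and 84.1 against 104 and 101 CPM (0.27 ± 0.04). The YAP targets Ctgf and Tgfb2, read out when cells spread under tension, differed by 0.21 ± 0.02 and 0.26 ± 0.05, within a list of 9 with 5 higher and none lower. Among laminins and integrins, 15 of 23 were higher and 1 lower. Among genes of hemidesmosomes and epithelial basement membrane adhesion, Lama3 was at 7.50 and 8.00 against 13.3 and 13.3 CPM (0.78 ± 0.09), Itga3 at 33.2 and 33.6 against 55.5 and 55.5 CPM (0.73 ± 0.05) and Itgb4 at 318 and 334 against 458 and 459 CPM (0.49 ± 0.03). Lama4, a laminin of mesenchyme and vessels, was lower (−0.15 ± 0.03).

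None of the 4 reprogramming factors passed the test. Counts cannot separate the cassette from the endogenous genes. Pou5f1 (Oct4) was at 135 and 142 against 143 and 141 CPM (0.03 ± 0.03, adjusted p = 0.53) and Sox2 at 103 and 110 against 115 and 106 CPM (0.05 ± 0.04, adjusted p = 0.354). Klf4 was at 210 and 226 against 219 and 216 CPM (0.00 ± 0.03, adjusted p = 0.976) and Myc at 285 and 290 against 279 and 283 CPM (−0.03 ± 0.03, adjusted p = 0.374). For Pou5f1, Sox2, Klf4 and Myc the spread within a fraction was as large as the gap between fractions or nearly so.

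Pluripotency genes were nevertheless higher in CDH1-positive cells. Of 36 members in the files, 30 passed the filter, and 18 of these were higher, 0 lower and 12 not called (median 0.50). Both CDH1-positive libraries lay above both CDH1-negative libraries for 25 of all 36, against 23.7% of all genes in the files. Tdgf1 (Cripto), a co-receptor of Nodal, was at 0.772 and 0.525 against 4.21 and 4.02 CPM (2.66 ± 0.21, adjusted p = 1.55e-19), and Nodal itself at 0.715 and 0.555 against 1.73 and 1.43 CPM (1.31 ± 0.27). Among core factors, Sall4 was at 2.15 and 1.90 against 6.12 and 5.42 CPM (1.51 ± 0.15), Zscan10 at 1.37 and 1.02 against 3.64 and 3.78 CPM (1.63 ± 0.18) and Nanog at 1.72 and 1.34 against 3.23 and 2.46 CPM (0.89 ± 0.19). Esrrb read 0.0572 and 0.0584 against 0.491 and 0.502 CPM (3.03 ± 0.65). All of these stayed far under ESCs, where in separately scaled libraries Nanog was at 156 CPM, Sall4 at 134 CPM, Esrrb at 144 CPM and Tdgf1 at 1098 CPM.

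Late markers of pluripotency were at or near 0 in both fractions. Dppa3 and Tcl1 had 0 counts in all 4 libraries, where a count of 0 allows up to 3 counts, or 0.0867 CPM in CDH1-negative and 0.0784 CPM in CDH1-positive libraries. Zfp42 (Rex1) reached at most 0.291 CPM and Dppa5a at most 0.211 CPM, and neither was tested. At the abundant end, Podxl, a sialomucin of epithelia and pluripotent cells, was at 236 and 238 against 371 and 376 CPM (0.65 ± 0.03, adjusted p = 6.07e-42), and L1td1 at 256 and 258 against 333 and 320 CPM (0.35 ± 0.03). Genes that maintain or remove DNA methylation differed in both directions. The de novo enzyme Dnmt3b was at 7.72 and 7.33 against 12.0 and 12.0 CPM (0.67 ± 0.09) and the hydroxylase Tet1 at 3.60 and 3.06 against 5.89 and 5.29 CPM (0.74 ± 0.13), whereas the maintenance enzyme Dnmt1 was lower, at 233 and 238 against 201 and 195 CPM (−0.25 ± 0.03), as was its partner Uhrf1 (−0.25 ± 0.03). Dot1l, the target of the inhibitor, was at 81.9 and 87.3 against 74.3 and 76.0 CPM (−0.17 ± 0.04, adjusted p = 0.000173).

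Proliferation genes were lower by a small and even amount. Of 37 genes of DNA replication and mitosis, 36 were lower, 0 higher and 1 (Rfc3) not called, with log2 fold changes between −0.41 and −0.11 and a median of −0.24. Both CDH1-positive libraries lay below both CDH1-negative libraries for 36 of the 37, against 22.8% of all genes. Rrm2, a subunit of ribonucleotide reductase, was at 317 and 320 against 247 and 244 CPM (−0.37 ± 0.03, adjusted p = 6.45e-23). The helicase subunit Mcm6 was at 195 and 184 against 153 and 158 CPM (−0.29 ± 0.03), and Mki67 at 465 and 447 against 383 and 390 CPM (−0.24 ± 0.03). Among mitotic genes, the survivin gene Birc5 was at 80.4 and 79.3 against 62.8 and 61.4 CPM (−0.36 ± 0.04), and Top2a at 370 and 358 against 308 and 302 CPM (−0.25 ± 0.03). Of 5 cyclin-dependent kinase inhibitors, 0 were called, against 26.6% of all genes tested. A list of 5 is too short to tell these shares apart. Cdkn1a (p21) was at 763 and 783 against 800 and 785 CPM (0.04 ± 0.03, adjusted p = 0.352). Of 9 p53 targets, 5 were higher, with Trp53inp1 at 199 and 194 against 240 and 242 CPM (0.29 ± 0.03) and Mdm2 at 478 and 470 against 525 and 533 CPM (0.16 ± 0.03).

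Mitotic promoters often carry a cell cycle homology region (CHR) with the letters TTTGAA, a site of the DREAM and MuvB complexes. It was found on either strand in the windows of 7 of 16 G2 and mitosis genes (43.8%), against 12.7% of tested genes, and of 2 of 15 replication genes (13.3%). In the windows below the letters begin 18 bases before the start in Cdc20, and 179 and 23 bases before it in Top2a. Cdc20 (chr4:118437344-118437593, minus strand) and Top2a (chr11:99024190-99024439, minus strand) are written 5′ to 3′ with the CHR letters in capitals, as examples of windows that hold the letters.
Cdc20: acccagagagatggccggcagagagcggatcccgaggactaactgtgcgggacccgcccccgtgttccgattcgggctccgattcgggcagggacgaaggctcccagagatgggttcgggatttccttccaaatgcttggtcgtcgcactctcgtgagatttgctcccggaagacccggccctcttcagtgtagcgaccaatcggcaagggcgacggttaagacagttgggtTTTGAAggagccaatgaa
Top2a: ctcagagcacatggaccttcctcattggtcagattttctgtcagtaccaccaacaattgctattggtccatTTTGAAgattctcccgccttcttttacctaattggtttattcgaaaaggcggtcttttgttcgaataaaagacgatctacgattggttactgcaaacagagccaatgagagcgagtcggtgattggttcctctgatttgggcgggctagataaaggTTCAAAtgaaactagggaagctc

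Interferon-stimulated genes were higher in CDH1-positive cells, in 16 of 20 members with none lower (median 0.63). Such genes are switched on through an interferon-stimulated response element (ISRE). Among effectors, Ifi44 was at 17.7 and 18.2 against 35.8 and 37.9 CPM (1.04 ± 0.06, adjusted p = 1.06e-29). Isg15, a ubiquitin-like modifier, was at 36.9 and 37.9 against 69.1 and 67.1 CPM (0.86 ± 0.05), and Bst2 (tetherin) at 51.2 and 54.1 against 88.1 and 87.8 CPM (0.74 ± 0.04). Usp18, which removes ISG15 from proteins, was at 11.2 and 10.3 against 18.3 and 21.7 CPM (0.89 ± 0.08). The RNA sensor gene Ddx58 (RIG-I) was at 47.5 and 47.8 against 70.5 and 65.1 CPM (0.51 ± 0.04), and the regulator Irf7 was higher too (0.63 ± 0.10). Ifit2 (0.00 ± 0.09), Rsad2 (0.01 ± 0.30), Mx1 (−0.31 ± 0.57) and Irf1 (−0.06 ± 0.07) were not called. The macrophage transcripts were higher in the same libraries, and their part in this difference was not tested. RSEM divides reads between near-identical genes, so single members of the Ifit, Gbp, Lyz and Fcgr families are uncertain.

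The ISRE core (GAAA, any 2 bases, GAAA, on either strand) lay in the windows of 9 of 16 interferon genes (56.2%), against 311 of 9902 tested genes (3.14%). Overlapping matches were counted separately. Isg15 (chr4:156200819-156201068, minus strand) holds 3 overlapping matches that begin 78, 72 and 66 bases before the start, Ifit1 (chr19:34640639-34640888, plus strand) holds matches at 104 and 85 bases, and Bst2 (chr8:71537473-71537722, minus strand) at 130 and 124 bases. They are given 5′ to 3′ with the ISRE core in capitals, since Isg15 and Bst2 also differ between vehicle and inhibitor below.
Isg15: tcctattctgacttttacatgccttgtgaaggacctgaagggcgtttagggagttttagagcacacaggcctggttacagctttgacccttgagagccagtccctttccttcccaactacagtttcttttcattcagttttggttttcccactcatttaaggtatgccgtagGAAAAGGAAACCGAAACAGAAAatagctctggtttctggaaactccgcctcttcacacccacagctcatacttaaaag
Ifit1: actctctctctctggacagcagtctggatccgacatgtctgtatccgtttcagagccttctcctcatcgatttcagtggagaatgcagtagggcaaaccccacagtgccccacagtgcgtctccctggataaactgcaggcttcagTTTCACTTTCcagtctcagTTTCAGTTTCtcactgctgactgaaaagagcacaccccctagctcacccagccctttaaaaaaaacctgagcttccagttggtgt
Bst2: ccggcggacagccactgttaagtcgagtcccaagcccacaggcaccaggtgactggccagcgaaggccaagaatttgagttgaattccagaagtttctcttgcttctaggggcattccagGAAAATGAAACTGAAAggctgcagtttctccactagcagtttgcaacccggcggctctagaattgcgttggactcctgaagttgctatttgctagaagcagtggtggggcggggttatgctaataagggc

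Transcripts of macrophages gave the largest fold changes. These phagocytes depend on the receptor CSF1R and the factor PU.1 (Sfpi1, now Spi1), and they take up debris through scavenger, Fc and complement receptors. Of 39 members, 33 passed the filter, of which 31 were higher, 0 lower and 2 not called, with a median log2 fold change of 3.26. Over all 39, both CDH1-positive libraries lay above both CDH1-negative libraries for 37, against 23.7% of all genes in the files. Lyz2 (lysozyme) was at 4.29 and 4.23 CPM in CDH1-negative and 32.8 and 35.2 CPM in CDH1-positive libraries (2.99 ± 0.08, adjusted p = 1.33e-57). Csf1r was at 1.92 and 1.99 against 11.4 and 11.7 CPM (2.56 ± 0.13), and Sfpi1 at 0.200 and 0.0292 against 2.17 and 2.09 CPM (4.17 ± 0.39). No member was at 0 in both CDH1-negative libraries.

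By role, the median log2 fold change was 4.43 for complement genes, 3.88 for Fc receptors and their adaptors, 3.47 for lysosome and effector genes and 3.26 for surface and scavenger receptors. The mannose receptor Mrc1 was at 0.429 and 0.379 against 13.6 and 12.5 CPM (5.00 ± 0.17), the scavenger receptor Msr1 at 0.544 and 0.321 against 8.78 and 8.38 CPM (4.30 ± 0.19) and Emr1 (F4/80, now Adgre1) at 0.286 and 0.204 against 5.71 and 4.99 CPM (4.43 ± 0.25). The complement genes C1qa, C1qb and C1qc differed by 4.66 ± 0.24, 4.43 ± 0.20 and 4.28 ± 0.22. Fcgr2b had 1 count in each CDH1-negative library and 57 and 52 in the CDH1-positive ones, a ratio of 49.3 with a counting interval of 13.3 to 412. Outside the list, the gelatinase Mmp9 of the inflammatory list, which macrophages also express, was at 2.00 and 2.48 against 18.9 and 19.08 CPM (3.08 ± 0.11, adjusted p = 3.24e-47). For all of these genes the groups were far apart. In separately scaled libraries, Mmp9 was at 10.7 CPM in uninduced MEFs, 0.632 CPM in unsorted day 4 cells and 0.693 CPM in MEFs carrying an empty virus. Lyz2 was at 143, 62.4 and 1128 CPM in the same libraries. Whether the Mmp9 transcripts came from macrophages was not tested.

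Laptm5, a lysosomal protein and the member highest in CDH1-negative cells, differed less, at 78.8 and 76.9 against 109 and 108 CPM (0.48 ± 0.04). The whole list summed to 112 and 109 CPM in CDH1-negative and 285 and 283 CPM in CDH1-positive libraries, a ratio of 2.57. Without Laptm5, a choice made after the values were seen, the sums were 33.0 and 32.3 against 176 and 176 CPM, a ratio of 5.39. In the separately scaled timecourse the sums of these 38 genes were 510 and 499 CPM in uninduced MEFs, 129 and 128 CPM at day 2 and 382 and 375 CPM at day 4, so the CDH1-positive fraction lay under the unsorted day 4 cells.

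**Figure D3:**
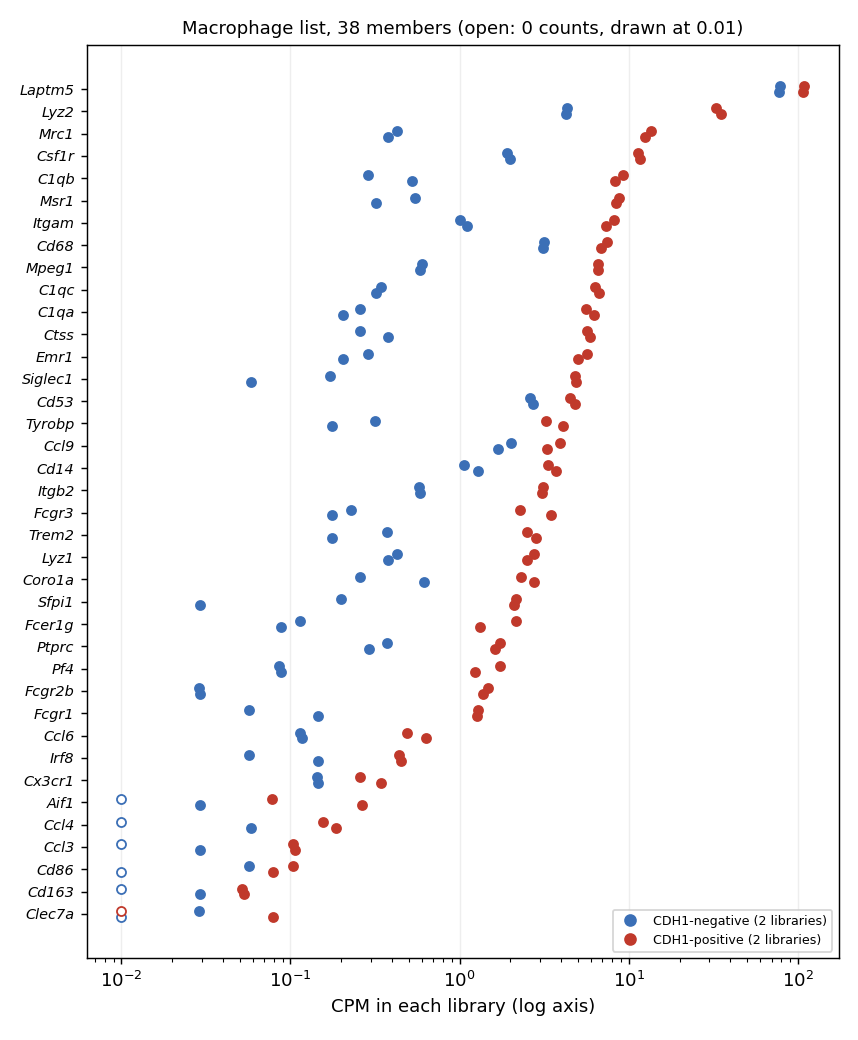
CPM in each of the 4 control libraries (x axis, logarithmic) for 38 of the 39 members of the macrophage list, ordered by their level in CDH1-positive cells. Blue points are CDH1-negative and red points CDH1-positive libraries. Red lies right of blue for all members drawn but Clec7a, which had at most 0.0793 CPM.

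Other cell types did not show such a pattern. Lists for lymphocytes, granulocytes and mast cells, erythroid cells and megakaryocytes, endothelium, nerve, skeletal muscle and trophoblast held 88 members in the files. Of these, 39 were tested, of which 3 were higher and 4 lower, against 12.8% and 13.8% of all genes tested. Both CDH1-positive libraries lay above both CDH1-negative ones for 20 of 88 (22.7%, against 23.7% of all genes). Only 2 of 12 lymphocyte members and 1 of 11 granulocyte and mast cell members were tested, so the calls say little about those cells. Genes of the cornified epidermis were mixed, with 6 of 15 higher (3 without CDH1-positive replicate 1) and 2 lower. The cell cycle regulator Sfn (14-3-3 sigma) led, at 11.0 and 11.6 against 33.5 and 31.2 CPM (1.52 ± 0.07), while Krt13 was lower (−0.20 ± 0.07, adjusted p = 0.0261).

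The 259 genes higher by 2-fold or more were mostly scarce transcripts: 248 had a mean log2 CPM under 3, and their median level over the 4 libraries was 0.714 CPM. The macrophage list supplied 28 of them, the 4 epithelial lists 24, pluripotency 8 and interferon response 2, and 193 were on no list. In ESCs against MEFs carrying an empty virus, a contrast of other libraries, 123 of the 259 were at least 4-fold higher in MEFs and 69 at least 4-fold higher in ESCs. A further 67 were in neither group. The MEF libraries also held macrophage transcripts, so that the 123 are not a count of fibroblast genes. Of the 123, 24 are members of the macrophage list and 98 are on no list. How many of the 98 are also expressed by macrophages was not tested. With a minimum mean level of 1 CPM, 98 genes were higher by 2-fold or more.

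Several of the largest increases at higher levels lay outside the epithelial and macrophage lists. Mal, a membrane raft protein of polarized epithelia, was at 14.1 and 13.8 against 32.9 and 31.2 CPM (1.2 ± 0.06). Adam8, a metalloprotease of leukocytes and other cells, was at 7.67 and 7.53 against 16.2 and 17.8 CPM (1.16 ± 0.09). Dmkn, a secreted protein of epidermis, was at 9.96 and 9.69 against 17.5 and 19.3 CPM (0.91 ± 0.08). The unnamed gene 1600029D21Rik was at 5.86 and 5.25 against 15.0 and 15.1 CPM (1.44 ± 0.10). Glucose transporters were higher as well, Slc2a3 at 106 and 111 against 161 and 164 CPM (0.58 ± 0.03) and Slc2a1 at 166 and 167 against 224 and 225 CPM (0.43 ± 0.03), within a glycolysis list of 15 with 6 higher (3 without CDH1-negative replicate 1) and 2 lower.

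Decreases of 2-fold or more were fewer than increases of that size, at 21 against 259 genes, although 1924 genes were lower and 1793 higher in all. Crabp1, which binds retinoic acid, was the only gene at a mean log2 CPM of at least 3 to be lower by 2-fold or more. It was at 76.0 and 79.0 CPM in CDH1-negative and 22.0 and 23.7 CPM in CDH1-positive libraries (−1.76 ± 0.05, adjusted p = 5.03e-58). Fbn2, a fibrillin of embryonic microfibrils, was at 223 and 223 against 122 and 123 CPM (−0.86 ± 0.03), and the TGF-beta-induced matrix protein Tgfbi at 125 and 132 against 85.1 and 84.4 CPM (−0.60 ± 0.03). The parathyroid hormone-like peptide Pthlh was at 11.2 and 10.4 against 6.43 and 5.89 CPM (−0.81 ± 0.11). Meox2, a mesodermal homeobox factor, was at 12.6 and 12.6 against 7.72 and 7.48 CPM (−0.73 ± 0.10).

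Of the 21, the 20 others had a mean log2 CPM under 3. Among these, named after their values were seen, the Wnt-binding protein Sfrp2 was at 4.18 and 5.87 against 2.09 and 1.66 CPM (−1.41 ± 0.16) and Kank4 at 6.35 and 6.33 against 2.87 and 3.04 CPM (−1.10 ± 0.13). At a mean log2 CPM of at least 3, the rest of the 15 largest decreases were all under 2-fold. They were Smpd3 (a sphingomyelinase), Pde2a (a phosphodiesterase), Fgl2, C530008M17Rik, Chl1 (a neural adhesion molecule), Gas7, Crym, Slc6a15 (an amino acid transporter), Tgm3 (a transglutaminase) and Galk1 (galactokinase), with log2 fold changes from −0.78 (Smpd3) to −0.58 (Galk1). Of 25 Hox genes, 0 were higher and 3 lower (median −0.06), against 12.8% higher and 13.8% lower of all genes tested. Among the 3 was Hoxd13 at 43.1 and 44.2 against 35.3 and 37.9 CPM (−0.25 ± 0.05). The calls of Hoxa9 and Hoxd9 ended with DESeq2 (adjusted p = 0.127 and 0.221). Paternally expressed imprinted genes included Slc38a4 at 103 and 99.6 against 73.1 and 69.9 CPM (−0.50 ± 0.04), Dlk1 (−0.45 ± 0.07) and Mest (−0.35 ± 0.06). Of 13 paternally expressed genes that were tested, 5 were lower, 2 higher and 6 not called. Of all genes tested, 13.8% were lower and 12.8% higher, so the count of 2 higher is near the general share. In the IGF axis, Igf1 was higher (0.61 ± 0.10) and Igfbp6 lower (−0.32 ± 0.06).

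**Figure D4:**
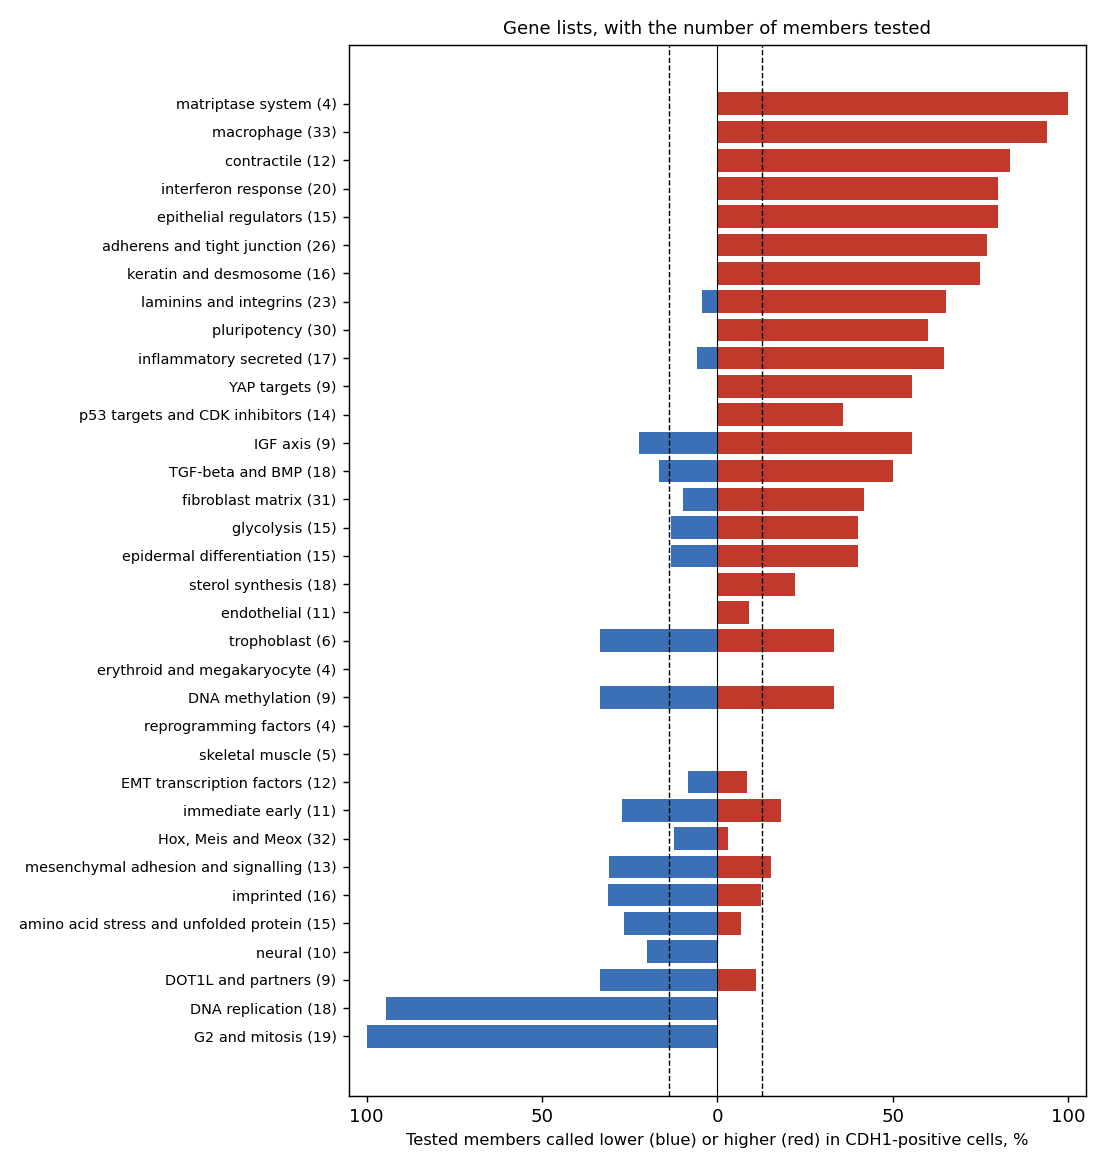
Share of tested members called higher (red, right) or lower (blue, left) in CDH1-positive control cells for each list with at least 4 tested members, whose number is in brackets. Dashed lines mark the shares over all genes tested, 12.8% higher and 13.8% lower. The replication and mitosis lists lie at the bottom and the matriptase, macrophage, contractile, interferon and epithelial lists at the top.

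Gene sets taken from other libraries were set beside the fractions. Of 1678 tested genes at least 4-fold higher in ESCs than in MEFs, 14.8% were higher and 27.1% lower in CDH1-positive cells (median −0.03). With an 8-fold limit, which left 877 genes, the shares were 18.0% and 20.3% and the median turned to 0.06. Of 2525 genes at least 4-fold higher in MEFs, 25.1% were higher and 7.6% lower (median 0.08), and 29 of them are macrophage list members. Genes that rose at least 4-fold from uninduced MEFs to day 4 numbered 915, of which 23.1% were higher and 6.99% lower (median 0.13). Those that fell as much numbered 637, of which 24.2% were higher and 5.49% lower (median 0.14). Against 12.8% and 13.8% of all genes tested, the ESC-high set alone of these 4 had more lower than higher calls. That set includes replication and mitosis genes described above as lower in CDH1-positive cells. In ESCs against MEFs, log2 fold changes were 5.12 for Mcm5, 3.33 for Mki67 and 2.92 for Rrm2, while Rrm1 at 0.99 was under the limit. The part of such genes in the lower calls was not tested.

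The same sort was also carried through with SGC0946. There 3749 genes were called between fractions (26.8%), 1890 higher and 1859 lower in CDH1-positive cells. Of the 259 genes higher by 2-fold or more in vehicle, 250 kept the sign and 213 were called with inhibitor. By list, 47 of 61 epithelial genes were higher and 0 lower, 31 of 33 macrophage genes were higher, and 36 of 37 replication and mitosis genes were lower. The 2 treatments share no library, but their libraries come from 1 sort, and the labels do not say how the sorted cells were divided.

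The difference between fractions itself changed with inhibitor for 26 genes (0.186% of those tested, an interaction contrast at an adjusted p under 0.05). It was 931 genes at an unadjusted p under 0.05, 11 with DESeq2 and 9 with limma on the TPM scale. Cdh1 was among them. With inhibitor it was at 21.0 and 20.9 CPM in CDH1-negative and 69 and 70.8 CPM in CDH1-positive libraries, a log2 fold change of 1.74 ± 0.05 against 2.67 ± 0.07 in vehicle. The narrowing thus came with higher Cdh1 in both fractions. Krt8 moved alike, at 43.6 and 43.0 against 83.0 and 82.1 CPM with inhibitor, or 0.93 ± 0.04 against 1.2 ± 0.05.

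Interferon genes narrowed with lower levels in CDH1-positive cells. The CDH1-negative level of Bst2 was much the same with and without inhibitor, while Isg15 and Ifi44 read lower in both fractions. Bst2 was at 53.3 and 54.3 against 55.6 and 56.9 CPM with inhibitor (0.06 ± 0.04, adjusted p = 0.261), where in vehicle it had differed by 0.74 ± 0.04. Isg15 was at 20.6 and 20.8 against 25.9 and 27.9 CPM (0.38 ± 0.06 against 0.86 ± 0.05) and Ifi44 at 12.4 and 12.0 against 16.5 and 16.0 CPM (0.41 ± 0.07 against 1.04 ± 0.06). The difference changed for 4 of the 20 members of the interferon list, these 3 among them. The list's median was 0.43 with inhibitor and 0.63 in vehicle. In the same libraries the macrophage sums without Laptm5 were 32.9 and 32.7 against 138 and 136 CPM, a ratio of 4.18, and their part in the narrower interferon difference was not tested.

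**Figure D5:**
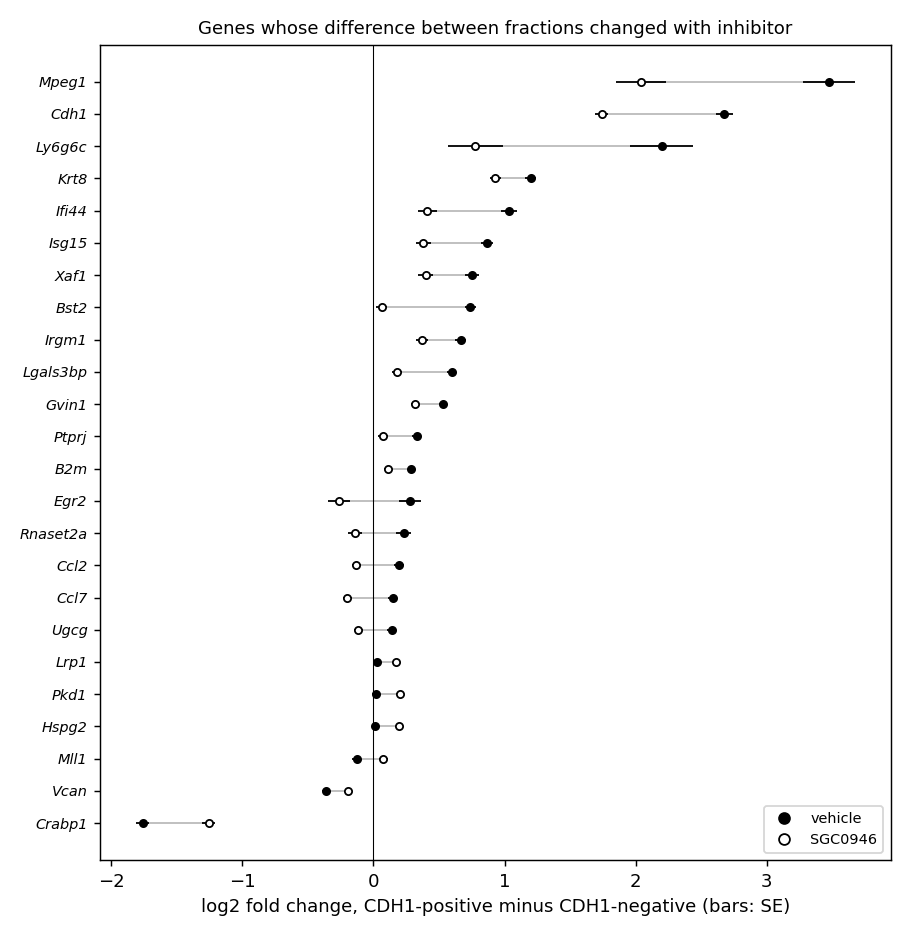
Log2 fold change between fractions (x axis, ± SE) in vehicle (filled) and with SGC0946 (open) for 24 of the 26 genes whose difference changed. Tppp, whose SE exceeded 0.5, is among those not drawn. Interferon genes and Cdh1 lie closer to 0 with inhibitor, and Ccl2, Ccl7, Ugcg, Egr2, Rnaset2a and Mll1 lie on the other side of 0.

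Of 10 cytokine and chemokine genes tested in the inflammatory list, 2 had a difference that changed, and both crossed 0. Ccl2, which attracts monocytes, was at 70.3 and 72.2 against 81.4 and 81.7 CPM in vehicle (0.19 ± 0.04) and at 119 and 115 against 106 and 107 CPM with inhibitor (−0.13 ± 0.03), both called. Ccl7 was at 90.9 and 91.3 against 99.1 and 102 CPM in vehicle (0.15 ± 0.04) and was lower by −0.20 ± 0.04 with inhibitor. Crabp1, the largest decrease at this level, was at 61.6 and 58.1 against 24.8 and 25.3 CPM with inhibitor, or −1.26 ± 0.05 against −1.76 ± 0.05. Of the macrophage list, Mpeg1 alone changed, from 3.47 ± 0.20 to 2.04 ± 0.19.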

How the data were processed

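Polyadenylated RNA with a spike of human 293T RNA was sequenced in pairs, per the labels' protocols. The deposited tables give RSEM expected counts and TPM per gene, and the submitters' processing notes name Trimmomatic, Bowtie, RSEM 1.2.4 and the builds mm9 and hg18. Expected counts were rounded and fitted with edgeR 4.0.16 in R 4.3.3 (TMM, filterByExpr, quasi-likelihood test) over the 8 libraries of the sort, 1 coefficient per group, with fractions compared within a treatment and between treatments. Alternatives used DESeq2 1.42.0, limma 3.58.1 on the authors' TPM (log2(TPM + 1)), other scalings and filters, a replicate block, and leaving out each control library. The fit was tested on simulated counts. The members, gene lists and tests were chosen with earlier results of these data known. Named genes were the 15 largest increases and decreases at a mean log2 CPM of at least 3 with groups apart, and up to 5 members per list by p. Further members were named for their role after their values were seen. Promoter windows came from RefSeq (GRCm38.p6), not the build of the counts. A few genes are not reported here.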

Additional observations from a re-analysis of the deposited data

Results flagged for a closer look

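The difference between CDH1-positive and CDH1-negative cells changed with SGC0946 for 26 genes, by an interaction contrast of edgeR's quasi-likelihood test (Benjamini-Hochberg adjusted over all genes tested). Values here are the log2 difference with inhibitor minus that in vehicle. The sort marker Cdh1 (−0.93, adjusted p = 1.44e-14) and the keratin Krt8 (−0.27, adjusted p = 0.0231) differed less between fractions with inhibitor.

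Of the interferon list, 4 of 20 members were among them, against 0.186% of all genes tested. The list members Bst2, Ifi44 and Isg15 gave −0.68 (adjusted p = 6.02e-17), −0.62 and −0.48. Outside the list, Xaf1 gave −0.36, Irgm1 −0.29, Gvin1 −0.22 and B2m, the light chain of MHC class I, −0.18. Lgals3bp, a secreted glycoprotein, gave −0.41. The chemokines Ccl7 and Ccl2 gave −0.34 and −0.32.

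The difference also moved down for the macrophage gene Mpeg1 (−1.43), Ly6g6c (−1.42), the immediate early factor Egr2 (−0.54), Rnaset2a (−0.37), the glucosylceramide synthase Ugcg (−0.26) and the phosphatase Ptprj (−0.25). It moved up for Crabp1 (0.50), Mll1 (0.20), Pkd1 (0.18), the proteoglycans Hspg2 (0.18) and Vcan (0.17), the receptor Lrp1 (0.14) and Tppp (4.19). Tppp rests on few counts.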

How the results depend on the processing

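Of 210 named genes tested, 166 kept their direction and side of the threshold under each of the 14 alternatives that tested them, and 0 reversed. DESeq2 called 2243 genes (1166 higher, 1077 lower, 13 lower by 2-fold or more), and limma on log2(TPM + 1) called 906 lower. The limma fit tested 12084 genes, those at a mean TPM of at least 1. Genes changed 2-fold or more numbered 109 (98 higher, 11 lower) at a mean of 1 CPM or above and 73 (71 higher, 2 lower) with limma. Leaving out 1 control library gave 2528 to 2999 genes called, 1278 to 1500 higher and 1201 to 1499 lower. The interaction gave 11 genes with DESeq2 and 9 with limma. By list, limma gave 7 epithelial regulators and 8 p53 and CDK inhibitor genes higher, and DESeq2 gave 7 inflammatory and 3 IGF axis genes. Leaving out 1 library gave 3 to 6 epidermal, 7 to 10 inflammatory, 3 to 6 glycolysis and 2 to 4 IGF axis genes higher. The macrophage ratio without Laptm5, chosen after seeing the data, was 5.39. With a minimum level of 5 in place of 3, 2 of the increases and 4 of the decreases named stayed. The labels state no pairing of same-numbered libraries. Between groups, the differences of replicate 1 minus replicate 2 had correlations of −0.17 to 0.19, which cannot decide whether such libraries were paired. The replicate block gave 3517 genes called, 278 of them at 2-fold or more, and 26 for the interaction. The causes were not tested. Genes under about 1 CPM rest on few counts. With an 8-fold in place of a 4-fold limit, the median of the ESC-high set turned from −0.03 to 0.06.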
